A study of Mus musculus with 14 samples.

Results

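Untreated mammary tumors of 2 mouse models were compared by bulk RNA-seq, with 1 library per tumor. The members were every untreated tumor of the series, namely 4 M/D-driven tumors and 3 AT3 tumors, so that 7 of the 14 tumors entered the comparison; the other 7 had received nicotinamide (NAM) in the drinking water. M/D-driven tumors were primary tumors that arose in C57BL/6 females given a slow-release pellet of 50 mg of the progestin medroxyprogesterone acetate (MPA) at 6 to 9 weeks of age, followed by 6 oral doses of the carcinogen DMBA (7,12-dimethylbenz[a]anthracene). AT3 tumors grew from 1000000 cells of a cultured mammary carcinoma line placed under the skin of C57BL/6 mice, whose age the labels do not give and which carried no MPA pellet. No tumor of either group received a therapeutic agent. The 4 M/D-driven tumors were thus separate primary tumors, while all AT3 tumors descended from 1 cell line. The labels place all untreated M/D-driven tumors in experiment 1 and all AT3 tumors in experiment 3, and effects of the model, the MPA pellet, the site of growth and the experiment cannot be told apart.

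MPA binds the progesterone receptor and, more weakly, the glucocorticoid and androgen receptors. In the normal mammary gland, hormone receptor positive luminal cells answer progesterone by releasing factors such as RANKL and WNT4, which act on neighboring luminal and basal cells. DMBA is a polycyclic hydrocarbon that binds the aryl hydrocarbon receptor and is turned into a mutagen by cytochrome P450 enzymes. The AT3 line was derived from a mammary tumor of a mouse carrying the polyoma middle T oncogene under the MMTV promoter, and is propagated without added hormone.

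The values were normalized counts, that is, reads assigned to a gene divided by a size factor per tumor. The 2 models had been normalized apart, so the 7 columns were brought to a common scale by the median ratio of each tumor to the geometric mean over the 18800 genes above 0 in all 7 tumors. These ratios ran from 1.10 to 1.16 for the M/D model and from 0.843 to 0.860 for AT3. Between 43742914 and 84178009 reads per tumor had been assigned to genes. Of the 56414 genes in the table, 34549 were above 0 in at least 1 untreated tumor, and the 21556 with a mean of at least 10 in either group were tested. Differences are given on the log2(value + 1) scale as M/D minus AT3, so that a positive difference marks a gene higher in M/D-driven tumors, each with its standard error (SE) from limma. A gene was called where its limma adjusted p did not exceed 0.05 and it differed 1.5-fold or more.

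The models differed widely. Of the genes tested, 5867 were higher in M/D-driven tumors, a share of 27.2%, and 5083 were higher in AT3 tumors, a share of 23.6%, so that 50.8% of all genes were called in either direction. Each list count from all 7 tumors on the common scale stands beside these shares of 27.2% and 23.6%. Differences of at least 16-fold were found for 1001 genes on the M/D side and for 258 on the AT3 side. The median difference over all genes tested was 0.03. Counted over the 1000 genes that varied most, the split by model took up 70.0% of the squared distance among tumors, the largest share of all 35 ways to split the tumors 4 against 3 (exact permutation p = 0.0286, the smallest these 7 tumors can give). It rose to 89.6% when M/D tumor 2 was left out.

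**Figure D1:**
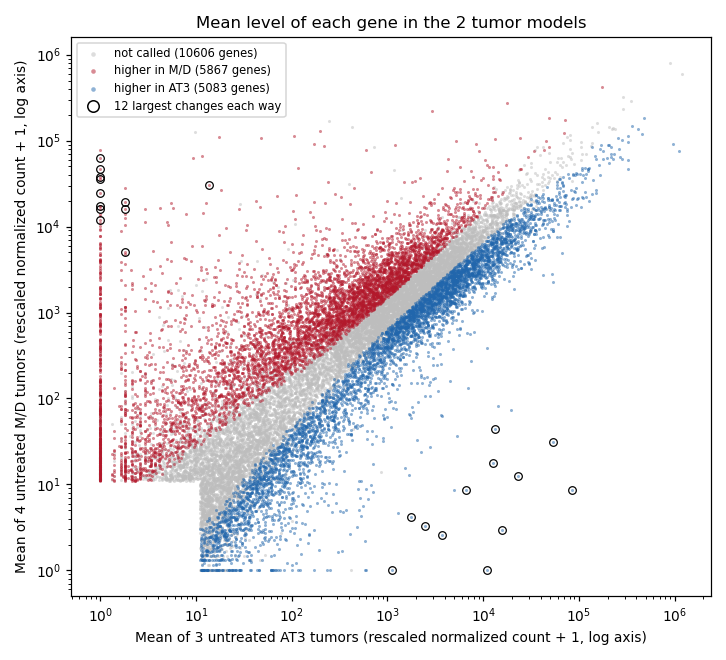
Mean normalized count plus 1, rescaled as for the test, of each of the 21556 tested genes in the 3 untreated AT3 tumors (x axis) and the 4 untreated M/D-driven tumors (y axis), on logarithmic axes. Each point is 1 gene, red for the 5867 called higher in M/D-driven tumors, blue for the 5083 called higher in AT3 tumors and gray for the rest, and black circles mark the 12 largest differences each way, several of which are listed at 0 in every tumor of 1 model.

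Within the M/D model, tumor 2 stood apart. Its root mean square log2 difference from the 3 other M/D-driven tumors was 1.58, 1.71 and 1.85, against 0.938 to 1.13 among those 3, 1.02 to 1.29 between AT3 tumors and 2.24 to 2.61 between tumors of different models. The median spread within a model was nevertheless alike over all genes, with a median standard deviation (SD) of log2 values of 0.442 for the M/D model and 0.457 for AT3. An SD above 2 was found for 1128 genes in the M/D model and for 897 in AT3. Each gene group was therefore also counted without M/D tumor 2, when 28.8% of genes were called higher in M/D-driven and 24.3% in AT3 tumors. On recovered reads, edgeR called 28% and 21.8% of genes in these directions and DESeq2 29% and 24.9%.

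The scale chosen moved the balance between the directions. On the common scale 53.6% of called genes were higher in M/D-driven tumors, against 35.3% when the upper quartile of each tumor set the scale (19.3% of genes higher in M/D-driven and 35.4% in AT3 tumors) and 70.2% with the values as deposited (35.9% and 15.3%). These scales shifted the median of all genes by -0.48 and 0.41, and TMM factors by 0.11. The difference also followed transcript length, which was known for 84.1% of tested genes. With the genes in 5 equal bins from the shortest to the longest, the median difference was -0.85, -0.30, 0.05, 0.44 and 1.06. After removal of each tumor's trend with length and GC, 7605 of the 9710 called genes with a length kept call and direction, and 1, the respiratory chain gene Uqcrb, turned from -0.80 to 0.59. The part of RNA integrity or library preparation in this trend was not tested. Counts with the trend removed, where 27% of genes were higher in M/D-driven and 21.4% in AT3 tumors, are given below for each list where a count moved by 2 genes or more.

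The genes with the largest excess in M/D-driven tumors, by a fixed rule that took the 12 largest differences among called genes with a mean of at least 500, were Cnfn, Klk10, Rptn, Klk6, Fam25c, Klk7, Nccrp1, Klk13, Dsc1, Dsc2, Sprr2a1 and Stra6. Several are known from the upper epidermis and other stratified epithelia. The kallikreins Klk6, Klk7, Klk10 and Klk13 are secreted serine proteases, Cnfn, Rptn and Sprr2a1 encode parts of the cornified envelope of keratinocytes, Dsc1 and Dsc2 are desmosomal cadherins, and Stra6 is a receptor for the retinol carrier. Of the 12, 8 were at 0 in all 3 AT3 tumors.

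Cnfn (chr7:25367616-25369725 on mm10) was counted at 14358, 105, 29683 and 55076 in M/D tumors 1 to 4 and at 0 in each AT3 tumor. By group means, this is at least 6424-fold higher when the AT3 tumors are set to a floor of 3 reads per library, a floor that covers counting error only (limma adjusted p = 0.000913). All such fold bounds compare arithmetic group means and not log2 values, and single tumors can lie below them. Klk10 stood at 7275, 715, 18235 and 21391, and was at least 3083-fold higher (limma adjusted p = 9.84e-05). Sprr2a1 stood at 19215, 0, 54984 and 68423 (limma adjusted p = 0.0223), with M/D tumor 2 at 0 like the AT3 tumors. For all 12 genes the lowest M/D-driven tumor was M/D tumor 2 and the highest M/D tumor 4, and the groups were apart for 11 of the 12, as they were with M/D above AT3 for 27.9% of all genes. Sprr2a1 lost its call when any tumor but M/D tumor 2 was left out (limma adjusted p = 0.0525 to 0.0733). Dsc2 was the most even of the 12, at 3315, 2946, 5994 and 7849 against 0, 2.36 and 0. The Klk and Sprr genes have close paralogs, and the division of reads between them is uncertain.

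The 12 genes with the largest excess in AT3 tumors were Dcpp3, Esp15, Pip, Dcpp1, Dcpp2, Ibsp, Amtn, Zic2, Wfdc13, Dynlt1b, Fndc3c1 and Fabp7. Dcpp1 to Dcpp3 and Esp15 encode secreted proteins of exocrine glands, Pip is the prolactin-inducible protein, Ibsp and Amtn encode proteins of bone and enamel matrix, Zic2 is a zinc finger transcription factor and Fabp7 a fatty acid binding protein best known from neural tissue. Dcpp3 (chr17:23917458-23919441) was counted at 4.61, 17.7, 3.89 and 4.27 in M/D-driven tumors and at 96027, 59792 and 101327 in AT3 tumors, a difference of -13.50 (SE 0.48, limma adjusted p = 1.62e-05). Zic2 was at 0 in all M/D-driven tumors and at 942, 1344 and 1050 in AT3 tumors, at least 454-fold lower in M/D-driven tumors. Esp15 was likewise at 0 in M/D-driven tumors, against 3709, 3487 and 25749, at least 4480-fold lower. DESeq2 gave no adjusted p for Esp15 and Pip. No M/D-driven tumor reached the lowest AT3 tumor for any of the 12. The 3 Dcpp genes are near-identical neighbors and Dynlt1b has copies on the same chromosome, so their single values are uncertain.

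**Figure D2:**
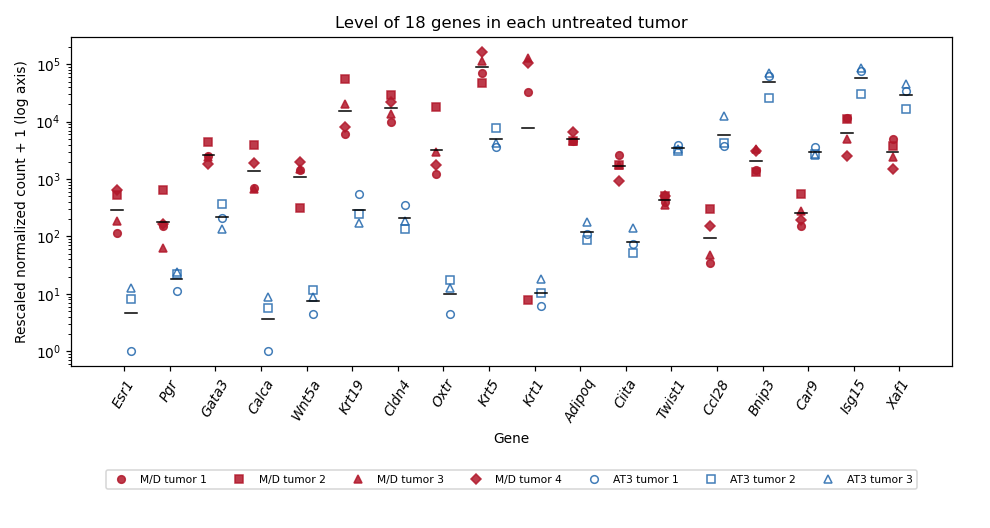
Normalized count plus 1, rescaled as for the test, in each untreated tumor (logarithmic axis) for genes of several of the lists described here, with filled red symbols for M/D-driven tumors, open blue symbols for AT3 tumors and black bars for the mean on the log scale. Among the genes plotted the models overlap for Krt1, where M/D tumor 2 lies among the AT3 tumors, and for none of the others.

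Genes of hormone response set the models apart. Of 14 hormone receptors and luminal transcription factors, 7 were higher in M/D-driven and 3 in AT3 tumors, with a median difference of 1.30. Esr1 (chr10:4611593-5005633), the estrogen receptor, was counted at 115, 521, 188 and 650 in M/D-driven tumors and at 0, 7.09 and 11.6 in AT3 tumors, so that every M/D-driven tumor lay far above the highest AT3 tumor. The group means were 369 ± 258 (SD, n = 4) and 6.22 ± 5.84 (SD, n = 3), a difference of 5.98 (SE 0.96, limma adjusted p = 0.00139). Pgr, the progesterone receptor, stood at 148, 652, 61.5 and 167 against 10.3, 21.3 and 23.2, a difference of 3.29 (SE 0.74, limma adjusted p = 0.0065). Both receptors were lower in every AT3 tumor than in any M/D-driven tumor, and M/D tumor 2 held the most Pgr.

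Gata3, a transcription factor of the luminal lineage, was between 1857 and 4374 in M/D-driven tumors and between 135 and 361 in AT3 tumors, a difference of 3.61 (SE 0.39, limma adjusted p = 0.000257). Elf5, which drives the alveolar luminal fate, differed by 3.02 (SE 0.22, limma adjusted p = 6.61e-05). Tbx3, Myb and Ehf were the other members higher in M/D-driven tumors. The opposite held for Xbp1, a factor of secretory cells and the unfolded protein response, at 35680, 23870, 54850 and 34360 against 115880, 89438 and 143968 (difference -1.68, SE 0.32, limma adjusted p = 0.00304), and for Tfap2c. Foxa1, a pioneer factor for the estrogen receptor, was called higher in AT3 tumors, but M/D tumor 2 at 5978 lay within the AT3 range of 4863 to 6149, while the other M/D-driven tumors stood at 362, 1134 and 752 (difference -2.23, SE 0.78, limma adjusted p = 0.0402). The call was lost by edgeR (difference -1.37, edgeR adjusted p = 0.188), by DESeq2 and without any single tumor other than M/D tumor 2. Prlr, the prolactin receptor, differed by 0.24 (SE 0.73, limma adjusted p = 0.797).

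Of the 12 genes of the progesterone paracrine axis and hormone response, 11 were higher in M/D-driven tumors and none was higher in AT3 tumors, with a median difference of 2.65. Without M/D tumor 2 the counts were 10 and 1. Tnfsf11, which encodes the paracrine mediator RANKL, was counted at 407, 3584, 562 and 607 against 127, 26 and 106 (difference 3.55, SE 0.81, limma adjusted p = 0.00676). Its receptor Tnfrsf11a stood at 557, 1034, 653 and 303 against 82.3, 104 and 84.9 (difference 2.68, SE 0.40, limma adjusted p = 0.00105). Ligand and receptor were both higher in every M/D-driven tumor than in any AT3 tumor, and both were highest in M/D tumor 2. The ligands Wnt4 (difference 3.33, SE 0.73), Wnt5a (7.14, SE 0.66), Rspo1 (2.62, SE 0.68) and Areg (3.02, SE 0.81) and the calcitonin peptide gene Calca (8.54, SE 0.87) were higher as well. Calca was counted at 693, 3938, 680 and 1895 in M/D-driven tumors, against 0, 4.72 and 7.72 in AT3 tumors. Areg, an EGFR ligand released on estrogen and progesterone signaling, lost its call without AT3 tumor 2 (limma adjusted p = 0.0652). Cited1, a coregulator of the estrogen receptor, was the member not called (difference -1.03, limma adjusted p = 0.16).

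Steroid-induced genes that glucocorticoid and progestin receptors share did not follow. None of 10 was higher in M/D-driven tumors, and the median difference was -0.12. Fkbp5, a chaperone induced by both receptors, stood at 2076, 3656, 1226 and 2962 against 1858, 2084 and 2147, with overlapping groups. Errfi1, a feedback inhibitor of EGFR, was higher in AT3 tumors, at 4905, 6561, 5774 and 4944 against 11331, 13802 and 16392 (difference -1.31, SE 0.20, limma adjusted p = 0.00114).

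Of the 6 tested genes of the aryl hydrocarbon receptor list, 4 were higher in M/D-driven tumors. The receptor gene Ahr was counted at 7050, 1799, 8152 and 5200 against 434, 803 and 380 (difference 3.24, SE 0.51, limma adjusted p = 0.0013), its repressor Ahrr at 52.6, 46.3, 51.8 and 37.0 against 6.86, 11.8 and 7.72, and the DMBA-metabolizing enzyme Cyp1b1 at 1418, 563, 1232 and 450 against 137, 246 and 126. In all 3 genes the groups were apart. Nqo1, a quinone reductase, was higher in AT3 tumors (difference -1.95, SE 0.63, limma adjusted p = 0.0293), though M/D tumor 2 at 5936 lay above the lowest AT3 tumor and the call was lost with the length trend removed (limma adjusted p = 0.097), by edgeR and DESeq2, and without any single tumor other than M/D tumor 2. Cyp1a1 was below the minimum level for a test.

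Milk protein genes varied widely among M/D-driven tumors. Of 12, 5 were higher in M/D-driven tumors and 1 (Lpo) in AT3 tumors, beside 27.2% and 23.6% of all genes. Csn2, the beta-casein gene, stood at 342, 50966, 74513 and 756 in M/D-driven tumors and at 396, 133 and 654 in AT3 tumors, so that M/D tumors 2 and 3 were high and M/D tumors 1 and 4 lay near the AT3 tumors (difference 4.10, SE 1.86, limma adjusted p = 0.0926). Csn3, kappa-casein, did not pass the test in either direction (difference -2.01, SE 1.28, limma adjusted p = 0.212), with 36716 to 159905 in AT3 tumors and 1079 to 62081 in M/D-driven tumors. Glycam1, a mucin of milk, stood at 115, 909, 8718 and 487 against 17.2, 9.45 and 19.3 (difference 5.71, SE 1.20, limma adjusted p = 0.00483). Lpo, lactoperoxidase, was higher in AT3 tumors at 1136, 1435 and 6387 against 36.9, 451, 442 and 57.7, a call that was lost without AT3 tumor 3 (limma adjusted p = 0.0537).

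Epithelial genes common to mammary carcinoma were present in all 7 tumors. Epcam was counted between 14312 and 56479 in M/D-driven tumors and between 21905 and 30721 in AT3 tumors (difference -0.07, SE 0.42, limma adjusted p = 0.904), and the luminal keratins Krt8 (difference -0.91, SE 0.62) and Krt18 (0.64, SE 0.54) did not pass the test either. These defining markers of epithelium were thus found in both models. Within the luminal list, 6 of 12 genes were nevertheless higher in M/D-driven tumors and none in AT3 tumors, with a median difference of 1.11. Without M/D tumor 2 the counts were 6 and 1 and the median difference was 0.64. Without AT3 tumor 3, 4 were higher in M/D-driven tumors. Krt19, a luminal keratin, stood at 6222, 54399, 20228 and 8001 against 557, 243 and 169 (difference 5.75, SE 0.73, limma adjusted p = 0.000529). The tight junction gene Cldn4 stood at 9915, 29639, 13443 and 22091 against 350, 132 and 188 (difference 6.38, SE 0.44, limma adjusted p = 5e-05), and Cldn3 differed by 6.86 (SE 0.59). Prom1, a marker of luminal progenitors, differed by 7.74 (SE 0.96). For 11 of the 12 luminal genes, M/D tumor 2 was the highest M/D-driven tumor.

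Basal and myoepithelial genes were higher in M/D-driven tumors in 11 of 12 cases, with a median difference of 3.38. The basal keratin Krt5 was counted at 69612, 46417, 115792 and 162408 against 3582, 7897 and 4284 (difference 4.16, SE 0.45, limma adjusted p = 0.000272). Krt14, its partner, stood at 103217, 28559, 300460 and 665761 against 12825, 25841 and 14010, and lost its call without AT3 tumor 1 or AT3 tumor 3. The contractile genes of myoepithelium showed their highest values in M/D tumor 2. Oxtr, the oxytocin receptor, stood at 1232, 17763, 2923 and 1733 against 3.43, 16.5 and 11.6 (difference 8.35, SE 0.88, limma adjusted p = 0.000245), and smooth muscle actin Acta2 at 17337, 164426, 32464 and 31075 against 3607, 5153 and 3996 (difference 3.29, SE 0.65, limma adjusted p = 0.00359).

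Junction genes followed the same direction, with 10 of 14 higher in M/D-driven tumors and 1, Lsr, higher in AT3 tumors. Cdh1, E-cadherin, was even within each model at 35855, 39079, 32675 and 31024 against 9098, 11582 and 7856 (difference 1.88, SE 0.21, limma adjusted p = 0.000278). Cdh3, P-cadherin, differed by 4.60 (SE 0.40) and Esrp2, an epithelial splicing regulator, by 3.01 (SE 0.44). Of 15 genes of the mesenchymal state, 8 were higher in M/D-driven and 2 in AT3 tumors, but 4 and 4 on the upper quartile scale. The transcriptional repressors Zeb1 (difference 2.58) and Zeb2 (2.06) and the receptor kinase Axl (2.64, SE 0.19, limma adjusted p = 6.37e-05) were among them. Twist1, which drives the mesenchymal program in development, was the clearest exception, at 393, 497, 359 and 508 in M/D-driven tumors and 3981, 3043 and 3332 in AT3 tumors (difference -2.98, SE 0.21, limma adjusted p = 5.59e-05), and N-cadherin, Cdh2, was the other. Fibroblasts also express several genes of this list. In bulk tumors, fewer cells of a type and less RNA per cell cannot be told apart.

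Squamous and cornified envelope genes had the largest median difference of the 38 lists. Of 19 tested, 14 were higher in M/D-driven tumors and none in AT3 tumors, with a median difference of 7.82, which stayed at 7.82 with the 5 genes at 0 in all AT3 tumors set to the lower bound of their fold. In 17 of the 19 genes M/D tumor 2 was the lowest M/D-driven tumor. Krt1, a keratin of differentiated epidermis, was counted at 33079, 6.90, 127215 and 104622 against 5.15, 9.45 and 17.4 (difference 9.51, SE 3.00, limma adjusted p = 0.027, or 0.0609 to 0.0878 without any single tumor other than M/D tumor 2), and Krt10, its partner, at 84348, 72.0, 164009 and 327752 against 645, 254 and 368. M/D tumor 2 thus lay within or below the AT3 range for both. Krt10, Krt16 and the envelope protein gene Lor were not called by limma in all 7 tumors and were called without M/D tumor 2 and by edgeR and DESeq2. Involucrin, Ivl, stood at 18947, 1.97, 11208 and 25496 against 0 in each AT3 tumor (limma difference 10.97). Its arithmetic mean in M/D-driven tumors was at least 3603-fold above the floor of 3 reads per library, but M/D tumor 2 lay below that floor. The count of 14 was 17 without M/D tumor 2, 8 without AT3 tumor 1 or AT3 tumor 2, 9 without M/D tumor 4 and 6 at an adjusted p of at most 0.01 with a 2-fold change. The skin above a subcutaneous or mammary tumor holds the same genes. Hair follicle genes, a possible sign of skin in the sample, were higher in M/D-driven tumors in 6 of 10 cases (3 without AT3 tumor 1 or AT3 tumor 2). In AT3 tumors 1 of them, Lef1, was higher. Over all genes the shares were 27.2% and 23.6%. Their summed levels were 10497, 5352, 7427 and 11460 against 1098, 1903 and 890. The part of hair follicle genes in the squamous result was not tested.

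The receptors and ligands of the ERBB family, through which epithelial cells receive EGF-like signals, were higher in M/D-driven tumors in 7 of 12 cases and in AT3 tumors in none. Over all genes the shares were 27.2% and 23.6%. Erbb3 was counted at 2788, 4408, 2634 and 2029 against 160, 350 and 159 (difference 3.77, SE 0.36, limma adjusted p = 0.000169). Erbb2 differed by 1.36 (limma adjusted p = 0.0066). Among ligands Ereg stood at 1012, 7.89, 1691 and 4918 against 0, 0 and 5.79, with M/D tumor 2 again near the AT3 tumors. Egfr differed by 0.09 (limma adjusted p = 0.78).

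Proliferation genes leaned the other way. Of 24, 10 were higher in AT3 tumors and none in M/D-driven tumors, with a median difference of -0.81; on the upper quartile scale 18 were higher in AT3 tumors and with the values as deposited 6. Without M/D tumor 1 the count was 17, and without AT3 tumor 3 it was 6. Birc5, survivin, a regulator of chromosome segregation, was counted at 5160, 3795, 2809 and 2065 against 22965, 14966 and 27453 (difference -2.69, SE 0.34, limma adjusted p = 0.000502), and the mitotic kinase Cdk1 at 7163, 5520, 3412 and 2587 against 16256, 10552 and 19360 (difference -1.79, SE 0.37, limma adjusted p = 0.00451). Mki67, the antigen Ki-67, overlapped between the models at 6885, 4961, 3665 and 2031 against 3227, 8736 and 4526 (difference -0.33, SE 0.45, limma adjusted p = 0.554), and became a call with the length trend removed (difference -1.32, limma adjusted p = 0.0169). Within the M/D model, tumor 1 was the highest for 21 of the 24 genes and tumor 4 the lowest for 16.

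Among cell cycle inhibitors and p53 targets, 2 of 14 were higher in M/D-driven and 5 in AT3 tumors, beside 27.2% and 23.6% of all genes. Without AT3 tumor 1 the count in AT3 tumors was 3. The neighbors Cdkn2a and Cdkn2b, both inhibitors of G1 progression, went in opposite directions. Cdkn2a stood at 988, 865, 348 and 1951 against 3781, 2794 and 3549 (difference -1.94, SE 0.49, limma adjusted p = 0.0107), and Cdkn2b at 2750, 1066, 2732 and 5315 against 134, 215 and 218 (difference 3.78, SE 0.48, limma adjusted p = 0.000542). The pro-apoptotic p53 target Bax was higher in AT3 tumors (difference -1.92, SE 0.23, limma adjusted p = 0.000453), as was Bbc3. The groups did not overlap for any of these 4 genes.

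Type I interferon response genes were higher in AT3 tumors. Of 24, 14 passed the test in that direction and none in the other, the median difference was -2.0, and 17 did not overlap between the models, beside 26.2% of all genes with every M/D-driven tumor below every AT3 tumor. M/D tumor 4 was the lowest M/D-driven tumor for all 24 genes. The promoters of 2 such genes are shown because the group moved together; they are the 250 bases before the annotated start, from RefSeq on GRCm38.p6, 5′ to 3′ on the strand of the gene, with matches to GAAANNGAAA, a form of the interferon-stimulated response element, in capitals on either strand.
Isg15, minus strand, chr4:156200819-156201068: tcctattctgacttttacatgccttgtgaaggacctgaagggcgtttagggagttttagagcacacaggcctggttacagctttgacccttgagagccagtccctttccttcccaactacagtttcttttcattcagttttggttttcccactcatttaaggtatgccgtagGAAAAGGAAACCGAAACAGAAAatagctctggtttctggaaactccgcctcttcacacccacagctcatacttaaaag
Ifit3, plus strand, chr19:34583279-34583528: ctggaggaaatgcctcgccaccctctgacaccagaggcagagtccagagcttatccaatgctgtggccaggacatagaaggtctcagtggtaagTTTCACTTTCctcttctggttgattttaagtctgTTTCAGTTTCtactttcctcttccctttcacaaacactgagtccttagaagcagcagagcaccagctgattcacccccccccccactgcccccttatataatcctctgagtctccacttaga

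In the promoter of Isg15 3 overlapping matches began 78, 72 and 66 bases before the start, and in that of Ifit3 2 matches, read on the opposite strand, began at 156 and 122 bases. This letter pattern was found in 3.46% of the promoters of 27025 symbols. Among the 18 listed genes with a promoter sequence, 8 held it, namely 6 of the 9 called higher in AT3 tumors and 2 of the 9 not called. A match describes these letters only.

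Isg15, a ubiquitin-like protein induced by interferon, was counted at 11697, 11050, 4973 and 2541 in M/D-driven tumors and at 75098, 30539 and 86206 in AT3 tumors (difference -3.20, SE 0.58, limma adjusted p = 0.0024). Ifit3, an antiviral effector, stood at 8337, 7500, 3788 and 2863 against 39065, 23549 and 59849 (difference -2.90, SE 0.44, limma adjusted p = 0.00114). For both, even the lowest AT3 tumor was well above the highest M/D-driven tumor. Mx2 differed by -3.62 (SE 0.52), Xaf1 by -3.35 (SE 0.45) and Irf7, the transcription factor that amplifies the response, by -2.68 (SE 0.54, limma adjusted p = 0.00393). With the length trend removed 16 of the 24 were higher in AT3 tumors.

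**Figure D3:**
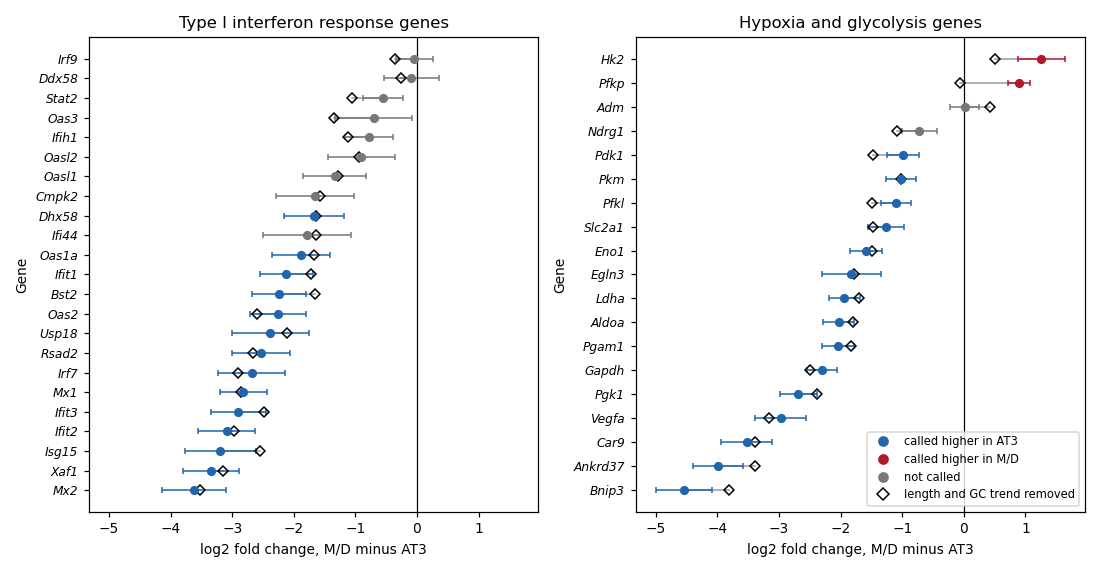
Difference M/D minus AT3 (log2, x axis) of tested genes of the interferon list (left, 1 gene that was not called is not plotted) and of the hypoxia and glycolysis list (right), from 4 M/D-driven and 3 AT3 tumors, with bars for 1 SE and points blue where called higher in AT3 tumors, red where called higher in M/D-driven tumors and gray where not called. Open diamonds give the difference with the length and GC trend removed, and 14 of 24 interferon genes and 15 of 19 hypoxia and glycolysis genes are blue.

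Hypoxia and glycolysis genes were mostly higher in AT3 tumors, with 15 of 19 called in that direction, 2 higher in M/D-driven tumors (Hk2 and Pfkp, of which 1 was called without M/D tumor 3, M/D tumor 4, AT3 tumor 1 or AT3 tumor 3) and a median difference of -1.82. With the length trend removed, and on the upper quartile scale, the counts were 16 and 0. Hypoxia-inducible factors bind DNA at sites with the core ACGTG, and the promoters of Bnip3 and Car9, 2 of the 11 listed genes higher in AT3 tumors that hold it, are shown with the core in capitals, which read CACGT where it lies on the opposite strand.
Bnip3, minus strand, chr7:138909507-138909756: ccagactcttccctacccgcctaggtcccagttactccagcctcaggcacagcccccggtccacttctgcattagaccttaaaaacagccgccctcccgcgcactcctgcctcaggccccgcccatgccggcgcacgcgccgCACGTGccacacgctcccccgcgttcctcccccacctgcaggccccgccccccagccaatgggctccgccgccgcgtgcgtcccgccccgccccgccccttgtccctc
Car9, plus strand, chr4:43506776-43507025: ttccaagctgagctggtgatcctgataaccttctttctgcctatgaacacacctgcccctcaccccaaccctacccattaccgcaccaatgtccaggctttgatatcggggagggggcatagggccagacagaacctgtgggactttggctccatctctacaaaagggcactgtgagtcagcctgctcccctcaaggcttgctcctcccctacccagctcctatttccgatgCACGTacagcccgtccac

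The palindrome in the promoter of Bnip3 was read as 2 overlapping matches, 108 and 107 bases before the start, and the match in that of Car9 began 18 bases before it. The core was found in 18.5% of the promoters of the same 27025 symbols. In this list 12 of 18 genes with a promoter held it, 11 of them among the 15 genes higher in AT3 tumors. For neither motif was the share over all symbols matched to the list for base composition or expression, and a match describes letters only.

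Bnip3, a mitophagy receptor, was counted at 1434, 1316, 3336 and 3039 in M/D-driven tumors and at 62849, 25882 and 70748 in AT3 tumors (difference -4.54, SE 0.45, limma adjusted p = 0.000197). Car9, carbonic anhydrase 9, stood at 149, 550, 280 and 192 against 3561, 2788 and 2668 (difference -3.52, SE 0.41, limma adjusted p = 0.000384), and the angiogenic factor Vegfa at 2389, 1589, 5486 and 3222 against 19896, 33114 and 17207 (difference -2.97, SE 0.41, limma adjusted p = 0.000756). The groups were far apart for all 3. Among glycolytic enzymes, Gapdh stood at 18934, 12030, 16154 and 20000 against 91248, 85973 and 69288 (difference -2.31, SE 0.24, limma adjusted p = 0.000241) and Ldha, lactate dehydrogenase A, differed by -1.94 (SE 0.25). Gapdh is often taken as a reference gene, and it was 4.95-fold lower in M/D-driven tumors here.

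Of 14 genes of MHC class I presentation, 4 were higher in AT3 tumors, a share near the 23.6% of all genes, and 1, the transactivator Nlrc5, in M/D-driven tumors. These counts depended on the setting, with 10 and 0 on the upper quartile scale, 3 and 0 with the length trend removed, and 2 and 0 without AT3 tumor 1 or AT3 tumor 3. Nlrc5 was also not called without M/D tumor 3. The immunoproteasome genes Psmb8, Psmb9 and Psmb10 were among the 4, with Psmb9 at 11664, 8797, 3996 and 2782 against 39252, 12369 and 46887 (difference -2.29, SE 0.60, limma adjusted p = 0.0122), a call that was lost without AT3 tumor 1 or AT3 tumor 3. B2m, the light chain of class I molecules, was called (difference -1.39, SE 0.49, limma adjusted p = 0.0411) but had a difference of -0.27 with the length trend removed (limma adjusted p = 0.66), and its call was also lost without any single tumor other than M/D tumor 2 or AT3 tumor 2. Of MHC class II genes 9 of 10 were higher in M/D-driven tumors, with a median difference of 2.55. The class II transactivator Ciita was counted at 2659, 1778, 1764 and 943 against 72.0, 50.8 and 137 (difference 4.38, SE 0.43, limma adjusted p = 0.000186), and the alpha chain gene H2-Aa at 55978, 63383, 46637 and 42060 against 9513, 4052 and 19607 (difference 2.50, SE 0.46, limma adjusted p = 0.00273). Both were higher in every M/D-driven tumor.

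Markers of T cells and myeloid cells were higher in M/D-driven tumors. Of 16 T cell genes, 12 passed the test in that direction, none in the other, and the median difference was 2.18. The count was 8 without AT3 tumor 1, 15 without AT3 tumor 3 and 10 on the upper quartile scale. Cd3e, a chain of the T cell receptor complex, stood at 417, 197, 242 and 152 against 36.0, 26.0 and 109 (difference 2.30, SE 0.55, limma adjusted p = 0.00874), and Foxp3, which defines regulatory T cells, at 248, 61.1, 142 and 136 against 0, 11.8 and 28.0 (difference 4.20, SE 1.07, limma adjusted p = 0.011). Cd8a overlapped, since AT3 tumor 3 at 710 lay among the M/D-driven tumors (difference 2.02, SE 0.82, limma adjusted p = 0.0667). M/D tumor 1 held the highest M/D value for all 16 T cell genes. None of 14 NK and cytotoxic genes was called by limma or edgeR, while an unadjusted limma p of at most 0.05 gave 3, DESeq2 2 and removal of the length trend 5, all in M/D-driven tumors. Over all genes, these settings called 30%, 29% and 27% higher in M/D-driven tumors. The values as deposited and the test without AT3 tumor 3 each gave 4 in that direction, while the upper quartile scale gave 1 in AT3 tumors. Of 12 B cell and plasma cell genes only Cd22 was called, and Cd79a, a part of the B cell receptor, stood at 729, 219, 14.9 and 77.7 against 41.2, 54.3 and 55.0, highest in M/D tumor 1.

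Macrophage genes were higher in M/D-driven tumors in 9 of 16 cases, beside 27.2% of all genes, or 12 with the length trend removed. The receptor for the growth factor CSF-1, Csf1r, was tightly grouped at 13212, 14200, 11875 and 13896 against 1407, 2416 and 2287 (difference 2.74, SE 0.22, limma adjusted p = 9.42e-05), and the F4/80 antigen gene Adgre1 stood at 2141, 2083, 1718 and 1294 against 403, 335 and 464 (difference 2.16, SE 0.24, limma adjusted p = 0.00031). C1qa, a complement gene of macrophages, differed less (0.62, SE 0.30, limma adjusted p = 0.112). Among neutrophil genes 8 of 12 were higher in M/D-driven tumors, or 5 without M/D tumor 4, AT3 tumor 2 or AT3 tumor 3. S100a9, an alarmin also made by keratinocytes, stood at 21441, 403, 225187 and 200760 against 161, 73.2 and 80.1, with M/D tumor 2 the lowest, and the chemokine receptor Cxcr2 at 326, 98.6, 1191 and 1153 against 39.5, 5.90 and 11.6 (difference 4.92, SE 0.95, limma adjusted p = 0.00317). Ly6g, the marker that defines neutrophils, was too low to be tested. Ltf, lactoferrin, which milk-secreting epithelium also makes, was highest in M/D tumor 2 at 138630, against 45288, 50493 and 76326 in the other M/D-driven tumors and 536 to 647 in AT3 tumors (difference 6.88, SE 0.36, limma adjusted p = 2.51e-05). Dendritic cell genes were higher in M/D-driven tumors in 5 of 12 cases, beside 27.2% of all genes, or 7 with the length trend removed. Checkpoint genes were higher there in 7 of 14 cases, but in 3 without AT3 tumor 1 and in 4, against 2 in AT3 tumors, on the upper quartile scale, and Cd274, which encodes PD-L1, differed by 0.67 (SE 0.50, limma adjusted p = 0.285).

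Of 25 chemokine ligands, 7 were higher in M/D-driven tumors, a share near the 27.2% of all genes, and 2 in AT3 tumors. The counts were 6 and 6 on the upper quartile scale and 12 and 2 with the length trend removed. The AT3 count was 5 without AT3 tumor 2, 4 without M/D tumor 1 and 1 without AT3 tumor 1. Ccl28, a mucosal chemokine that recruits plasma cells, was the exception in size, at 34.1, 295, 46.6 and 153 in M/D-driven tumors and 3765, 4331 and 12575 in AT3 tumors (difference -5.98, SE 0.76, limma adjusted p = 0.000523). Ccl19, which guides T cells and dendritic cells, was at 0 in all AT3 tumors and at 124, 46.3, 66.7 and 80.5 in M/D-driven tumors, at least 20.6-fold higher. The neutrophil attractant Cxcl5 differed by 3.97 (SE 0.52) and Cxcl14 by 3.34 (SE 0.73).

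**Figure D4:**
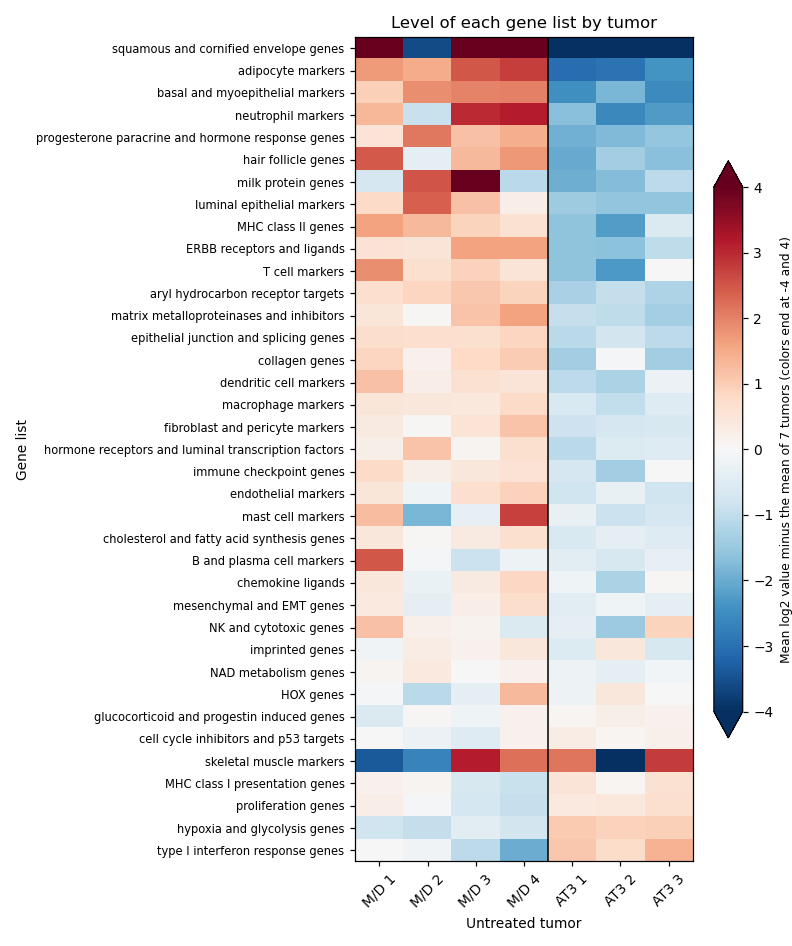
Mean log2(value + 1) of the tested genes of each list in every untreated tumor, minus the mean of the 7 tumors, with lists in rows, tumors in columns and colors from blue (lower) to red (higher). The interferon and hypoxia lists are higher in the 3 AT3 columns, the adipocyte, basal and MHC class II lists in the 4 M/D columns, and the squamous list, whose mean log2 value before that subtraction was 4.58 in M/D tumor 2 and 12.4 to 15.4 in the other M/D-driven tumors, is blue in M/D tumor 2 as in the AT3 tumors.

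The stromal genes that were called in all 7 tumors were higher in M/D-driven tumors. Of 14 endothelial genes 7 were higher there, among them Kdr, the main VEGF receptor, at 627, 502, 692 and 487 against 72.0, 196 and 127 (difference 2.22, SE 0.36, limma adjusted p = 0.00146). Of 14 fibroblast and pericyte genes 6 were higher, or 8 with the length trend removed, and of 19 collagens 9. Over all genes the share higher in M/D-driven tumors was 27.2%. With the length trend removed 8 collagens were higher in M/D-driven and 2 in AT3 tumors, and their median difference went from 1.17 to 0.30. Among the 9 collagens higher in M/D-driven tumors were basement membrane collagens, with Col4a1 at 19269, 17747, 16935 and 21886 against 1750, 4550 and 1851 (difference 2.94, SE 0.33, limma adjusted p = 0.000305). Col17a1, a part of hemidesmosomes, differed by 3.46 (SE 0.32). The fibrillar collagen Col1a1 overlapped between the models (difference 0.50, SE 0.72, limma adjusted p = 0.578). Without M/D tumor 2, 16 of the 19 collagens were higher in M/D-driven and 1 in AT3 tumors. Of 19 matrix metalloproteinases and inhibitors 12 were higher in M/D-driven tumors, or 7 with the length trend removed, 6 on the upper quartile scale, 7 without AT3 tumor 1 and 6 without AT3 tumor 3.

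Adipocyte genes were higher in M/D-driven tumors in 11 of 12 cases, with a median difference of 5.43, or 5.49 with Ucp1, at 0 in all AT3 tumors, set to its bound. Adipoq, the adipocyte hormone adiponectin, was counted at 4578, 4648, 4551 and 6597 against 110, 87.4 and 178 (difference 5.38, SE 0.28, limma adjusted p = 2.26e-05), and the lipid droplet protein gene Plin1 at 986, 873, 1119 and 1894 against 0, 9.45 and 25.1. The mammary fat pad surrounds M/D-driven tumors, and the share of adjacent fat in the samples was not tested. Skeletal muscle, the other tissue next to a tumor, varied within both models. Its 12 markers summed to 396, 1147, 28567 and 14678 in M/D-driven tumors and 13721, 392 and 23487 in AT3 tumors, and 0 of 12 were called by limma, edgeR or DESeq2, or by limma at an unadjusted p of at most 0.05. Without M/D tumor 2, limma called 1 higher in M/D-driven tumors.

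Lipid synthesis genes were higher in M/D-driven tumors in 10 of 17 cases, beside 27.2% of all genes. Scd1, the stearoyl-CoA desaturase, stood at 14760, 10002, 15271 and 16764 against 2473, 1025 and 1518 (difference 3.15, SE 0.31, limma adjusted p = 0.000194). Insig1, which restrains the sterol response, was higher in AT3 tumors (difference -1.85, limma adjusted p = 0.00098). With the length trend removed, 6 were higher in M/D-driven and 3 in AT3 tumors.

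The NAM-treated tumors of the same models gave a separate set of 4 M/D-driven and 3 AT3 tumors, none of which entered the comparison above, though 6 of the 7 came from the same experiments. They were brought to a common scale in the same way, over 19469 genes. The same test called 1054 genes higher in M/D-driven and 617 in AT3 tumors, 4.95% and 2.9% of the 21286 tested. Of the 5660 genes called higher in untreated M/D-driven tumors and tested here, 89.4% had a difference of the same sign, and 931 were called in the same direction. These were 16.4% of the untreated calls tested here and 88.3% of the NAM calls. Of the 4769 genes called higher in untreated AT3 tumors and tested here, 92.5% had the same sign and 549 were called in the same direction. These were 11.5% of the untreated calls tested here and 89.0% of the NAM calls. Called in opposite directions was 1 gene, which has no symbol and lies at chr5:129622946-129623221. Without NAM-treated M/D tumor 1, which the labels place in experiment 2, the shared calls numbered 1840 and 979.

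By group, 11 of 11 tested adipocyte genes were called higher in NAM-treated M/D-driven tumors, and 13 of 24 interferon response genes and 9 of 19 hypoxia and glycolysis genes were called higher in NAM-treated AT3 tumors. Of the 18 squamous genes tested 2 were called. Basal and myoepithelial genes had a median difference of 2.79, with 1 of 12 called. Proliferation genes had a median difference of -0.78, with 0 of 24 called. For hormone receptors and luminal transcription factors the median difference went from 1.30 in untreated to 0.06 in NAM-treated tumors. It went from 1.61 to -0.91 for junction genes and from 1.00 to -0.32 for lipid synthesis genes. All 12 named AT3 genes had the same sign and 10 were called, while of the 12 named M/D genes all had the same sign and 2 were called. Cnfn stood at 1.51, 45767, 109 and 7.44 in the NAM-treated M/D-driven tumors, so that 1 tumor was high. Whether NAM changed the distance between the models was not tested here.

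**Figure D5:**
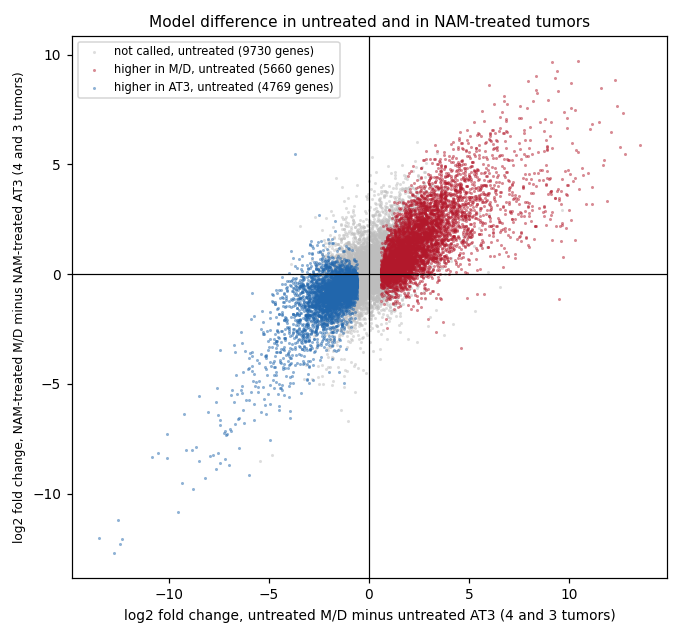
Difference M/D minus AT3 (log2) in untreated tumors (x axis) and in NAM-treated tumors (y axis), each point being 1 gene tested in both sets, red where called higher in untreated M/D-driven tumors, blue where called higher in untreated AT3 tumors and gray where not called. Points in the upper right and lower left quadrants have the same sign in both sets, as 89.4% of the red and 92.5% of the blue genes do.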

How the data were processed

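Tumor RNA was sequenced as polyadenylated RNA (TruSeq, paired reads of 75 bases). Per the study's methods and the labels, the authors mapped reads with STAR 2.4.0 on mm10, counted those that fell on constitutive parts of genes in the Mouse FAST DB annotation, and deposited counts divided by DESeq2 size factors, a normalized signal, in which M/D-driven and AT3 tumors had been normalized apart. The deposited signal of each tumor came in steps of the worth of 1 read: 100% of values were whole within 0.01, so reads were recovered for count tests. Strand use in counting is not given in the sources used here. Of the genes, 30657 have no symbol, and 639 rows join several symbols.

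The 7 untreated tumors were rescaled together, as described with the results, and tested with limma 3.58.1 (trend on, R 4.3.3) on log2(value + 1), with Benjamini-Hochberg adjustment over all 21556 genes. edgeR 4.0.16 (quasi-likelihood) and DESeq2 1.42.0 on recovered reads were alternatives and gave 10258 and 10645 of limma's 10950 calls. p-values measure the spread between tumors. Transcript length and GC content came from GENCODE on GRCm38, and trends were removed by splines with 4 degrees of freedom. The smallest exact permutation p for 4 against 3 tumors is 0.0286. Named genes were the 12 largest called differences each way, with a mean of at least 500 in the higher group and a symbol that is no predicted model, and members of 38 gene lists, of which 550 genes were tested. The members and lists were chosen with earlier results of these data known. List counts carry no test of their own, and some genes they include are not reported here. The limma, edgeR and DESeq2 tests were tested on simulated data with few changed genes and no tumor set apart, unlike these data. The exact permutation test and Dixon's test were not tested in this way. Python 3.11.15, pandas 2.3.3, numpy 2.4.6 and matplotlib 3.10.9 were used.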

Additional observations from a re-analysis of the deposited data

Results flagged for a closer look

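Among the 4 M/D-driven tumors, a single tumor stood apart from the others by Dixon's test for 2 of the 38 list means and 16 of the 132 genes followed. Such a test flags some groups by chance alone, at its 5% level.

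The lowest tumor was M/D tumor 2 for 11 of these genes. It stood at 0 for Sprr2a1 and at 2.96 for Klk7, 79.9 for Nccrp1, 17.7 for Klk13, 13.8 for Dsc1 and 1379 for Stra6. Among squamous genes it stood at 6.90 for Krt1, 72.0 for Krt10, 3.94 for Lor and 1.97 for Ivl, where the next M/D-driven tumor was at 33079, 84348, 12668 and 11208. It was also lowest for the ligand gene Wnt5a, at 315 against a next value of 1460. The same tumor was highest for Nqo1 at 5936, against 905 to 1031 in the other M/D-driven tumors, and for Dcpp3 at 17.7 and Pip at 7.89, which are low values beside those of AT3 tumors.

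Other tumors were singled out less often. The mean log2 value of basal and myoepithelial markers was lowest in M/D tumor 1 at 12.4, against 13.3 to 13.4 in the others, and that of macrophage markers was highest in M/D tumor 4 at 12.4, against 12.0 to 12.1. M/D tumor 4 was highest for Adipoq at 6597, with the others between 4551 and 4648, and M/D tumor 1 was highest for Lef1 at 88.5, with the others between 14.9 and 19.9.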

How the results depend on the processing

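Beside 5867 and 5083 genes higher in M/D-driven and AT3 tumors, an adjusted p of at most 0.01 with a 2-fold change gave 3687 and 2809. The count on the AT3 side was 7731 on the upper quartile scale and 3276 with the values as deposited. The replicate numbers did not pair the tumors, as deviations of same-numbered tumors correlated at -0.055, -0.050 and -0.033, and the replicate block gave 4500 and 3355 genes. Over all lists, 71 genes were higher in AT3 tumors, against 115 on the upper quartile scale and 46 at the stricter threshold. Leaving out each tumor in turn took the share of distance between models to 64.5% to 89.6%, where the smallest possible exact p is 0.0667 or 0.1. The calls shared with NAM-treated tumors, 931 and 549, became 1840 and 979 without NAM-treated M/D tumor 1, and 5062 and 4411 by sign alone. Of the 132 genes followed 114 were called. All 114 kept their call with a pseudocount of 0.5 or 5 and on the upper quartile scale, 113 on TMM, 111 with the values as deposited, 112 by edgeR and with the length trend removed, 109 by DESeq2 (which gave 3 no adjusted p), 108 with the block, 98 at the stricter threshold and 105 to 114 with 1 tumor left out, fewest without AT3 tumor 3. Genes not called changed sign as follows. Prlr came to -0.24 on the upper quartile scale, -0.29 with the length trend removed and -0.49 to 0.62 with 1 tumor left out, and Fkbp5 to -0.31, -0.17 and -0.047 to 0.48. Epcam came to 0.044 (TMM), 0.35 (deposited), 0.19 (edgeR), 0.12 (DESeq2), 0.21 (block), 0.086 (length) and -0.45 to 0.21 with 1 tumor left out. Mki67 came to 0.077 (deposited) and -0.65 to 0.063 with 1 tumor left out, and Col1a1 to -0.40 (length). Ckm came to 0.35 (edgeR), 0.26 (DESeq2) and -3.67 to 0.23 with 1 tumor left out. The cause of these changes was not tested. Beside the calls named with the results, Csn1s2a lost its call without AT3 tumor 2 (limma adjusted p = 0.0626) and Muc1 without AT3 tumor 3 (limma adjusted p = 0.0503).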

Other observations

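HOX genes, which carry positional identity, were called in both directions. Of 28 tested, 3 were higher in M/D-driven and 4 in AT3 tumors, smaller shares than the 27.2% and 23.6% of all genes. The counts were 6 and 3 with the values as deposited, and 5 were higher in M/D-driven tumors without AT3 tumor 2. Among those higher in AT3 tumors were Hoxa2, Hoxa4 and Hoxa5 of the HoxA cluster. Hoxa5 was counted at 33.2, 11.8, 45.3 and 36.3 in M/D tumors 1 to 4 and at 403, 544 and 320 in AT3 tumors (difference -3.81, SE 0.50, limma adjusted p = 0.000595). Hoxb2 and Hoxb3, of the HoxB cluster, went the other way, with Hoxb2 at 997, 602, 646 and 888 against 199, 98.0 and 152 (difference 2.4, SE 0.32, limma adjusted p = 0.000635). The groups did not overlap for either gene. Lef1, a transcription factor of WNT signaling on the hair follicle list, was higher in AT3 tumors at 736, 1086 and 474, against 88.5, 18.7, 14.9 and 19.9 (difference -4.71, SE 0.63, limma adjusted p = 0.000634).

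Imprinted genes were called in both directions as well, 6 of 17 higher in M/D-driven and 3 in AT3 tumors, beside 27.2% and 23.6% of all genes. With the length trend removed 6 and 7 were called and the median difference went from 0.70 to 0.03, and the upper quartile scale gave 4 and 5. Without AT3 tumor 1 or AT3 tumor 2, 1 was higher in AT3 tumors. Nnat, neuronatin, stood at 1077, 1899, 561 and 2263 against 0, 2.36 and 0 (difference 9.73, SE 0.64, limma adjusted p = 4.23e-05). H19, a noncoding RNA of fetal tissues, stood at 2267, 24327, 3625 and 5241 against 39308, 85771 and 35692 (difference -3.12, SE 0.73, limma adjusted p = 0.00756). Of 20 genes of NAD metabolism, 7 were higher in M/D-driven and 4 in AT3 tumors, beside 27.2% and 23.6% of all genes, and 4 and 7 on the upper quartile scale. The mitochondrial deacetylase Sirt3 was among the 4, at 302, 691, 435 and 328 against 2180, 1193 and 1777 (difference -2.0, SE 0.34, limma adjusted p = 0.00179), as was Nadsyn1, the last enzyme of NAD synthesis from nicotinic acid (difference -1.46, SE 0.21). Bst1, an NAD glycohydrolase, was higher in M/D-driven tumors (difference 2.30, SE 0.29, limma adjusted p = 0.000539). Of 8 mast cell genes only Hdc was called.

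Xist, the RNA that silences 1 X chromosome in female cells, was counted at 5044, 1374, 9425 and 2429 in M/D-driven tumors and at 96.1, 355 and 239 in AT3 tumors (difference 4.13, SE 0.67, limma adjusted p = 0.00144). The 4 Y-linked genes listed, Ddx3y, Kdm5d, Eif2s3y and Uty, were at 0 in all 7 tumors. Tsix, on the opposite strand, overlaps Xist, and reads of the pair may not be told apart.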
